A study of Arabidopsis thaliana with 18 samples.

Results

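The Sadhu elements SADHU1-1 (AT2G10410), SADHU3-1 (AT3G44042), SADHU3-2 (AT3G42658), Sadhu4-2 (AT1G03420) and SADHU10-1 (AT3G58865) are described here, 5 of the 16 Sadhu elements that the RefSeq annotation names and of the 32992 genes with 1 line per mRNA file. They were chosen by their measured mRNA levels in the parental libraries of these data, so the parental difference of each is given as a description without a test. The list names elements one by one and sets no threshold. Sadhu elements are a small family of retroelements of Arabidopsis that encode no protein and cannot move on their own. Single elements are known to be transcribed in some natural accessions and silent in others, and DNA methylation pathways keep silent copies silent. H3K27me3 is a repressive histone mark that Polycomb repressive complex 2 places, mostly over genes, and CLF (CURLY LEAF) is one of the methyltransferases of that complex.

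All libraries came from Arabidopsis thaliana seedling shoots at 14 days of age, grown on Murashige and Skoog medium with 1% sucrose in short days, with 8 h of light (22 °C) and 16 h of darkness (18 °C). Messenger RNA was measured in 9 libraries, 3 for each parental mutant (Col clf, C24 clf) and 3 for the clf F1 hybrid, and every mRNA library therefore carried clf mutations; wild-type mRNA was not analysed here. Col clf carries the insertion allele SALK_139371, C24 clf carries a point mutation in the SET domain from an ethyl methanesulfonate screen, and the clf F1 is a cross of these mutants that holds both alleles. Peak lists of H3K27me3 came from 2 libraries of each wild type (Col, C24 and F1) and 1 library of each clf genotype (Col clf, C24 clf, clf F1). Accession and clf allele change together in the mRNA libraries and cannot be told apart, and each mutant background is 1 line. Nothing in the labels ties replicates to separate sowings or plants; the p-values rest on the spread between libraries of a group, and part of it may be technical.

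Depth estimated from the value of 1 read ran from 14.9 to 24.05 M reads per mRNA library. The targeted gene CLF stood at 1.19 ± 0.191 RPKM (reads per kilobase of gene per 1 M reads; mean ± SD, n = 3) in Col clf, 7.56 ± 0.682 RPKM in C24 clf and 4.12 ± 0.213 RPKM in the clf F1. The leaf markers RBCS1A, LHCA1 and GLDP1 summed to between 16946 and 22250 RPKM in the 9 libraries, which the labels give as shoot. The 6 root markers summed to between 95.4 and 218 RPKM, nearly all of it from PYK10, a glucosidase of ER bodies, with a mean of 102 RPKM in Col clf, 141 RPKM in the clf F1 and 213 RPKM in C24 clf. The root hair genes RHD6 and EXPA7 and the iron transporter IRT1 were at or below 0.05 RPKM in every library. The other root markers were detected in every library, CASP1 at 0.14 to 0.71 RPKM and WOX5 at 0.51 to 0.89 RPKM. The part of PYK10's difference in the values below was not tested. In whole shoots, fewer cells that transcribe an element and less RNA per cell cannot be told apart.

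SADHU1-1 and Sadhu4-2 had more mRNA in Col clf, and SADHU3-1, SADHU3-2 and SADHU10-1 had more in C24 clf. In all 5 elements the 3 clf F1 libraries lay between the parental libraries without overlap, at 84.4% to 133% of the mean of the parents. The difference ran from all to nothing in SADHU1-1 and SADHU3-1, through 46.9-fold in SADHU3-2 and 8.06-fold in SADHU10-1, to 3.36-fold in Sadhu4-2. All 5 elements passed the filter of at least 1 RPKM in at least 3 libraries, which 3.56% of annotated pseudogenes, the class the annotation gives to Sadhu elements, passed; SADHU3-1 and SADHU3-2 passed it only through C24 clf and the clf F1, and SADHU1-1 only through Col clf and the clf F1. The C24 clf and Col clf libraries did not overlap in 55.4% of the 17819 tested genes, and the clf F1 lay between both without overlap in 11.7%. The choice of elements used the parental contrast, so nothing is read from these shares about it.

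**Figure D1:**
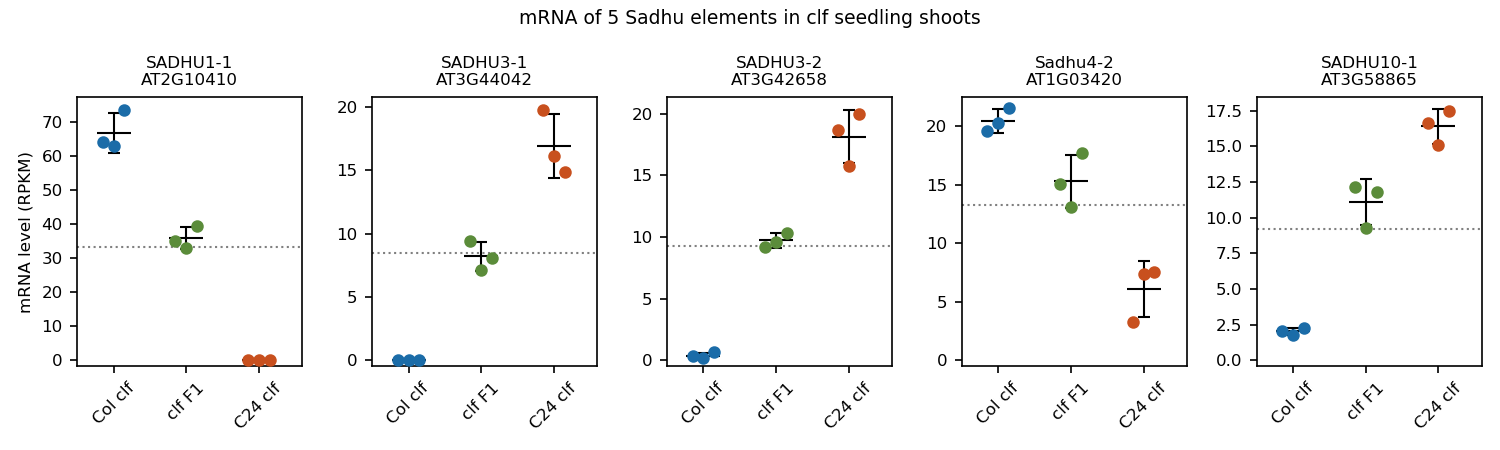
RPKM of each element in the 3 Col clf, 3 clf F1 and 3 C24 clf libraries (points), with the mean and SD of each group (black) and the mean of both parents (dotted). SADHU1-1 and Sadhu4-2 were highest in Col clf, the other elements in C24 clf, and in every panel the clf F1 points lie between the parental points.

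SADHU1-1 was the most abundant of all annotated Sadhu elements in the Col clf libraries and was not seen in C24 clf. It lies on chromosome 2 at 4005995-4007044, a span of 1050 bp. Its level was 64.10, 62.81 and 73.51 RPKM in Col clf, 35.09, 33.07 and 39.51 RPKM in the clf F1, and it was listed at 0 in all 3 C24 clf libraries. In C24 clf 1 read of this element would be worth between 0.040 and 0.064 RPKM, and a level under that cannot be seen. The group means were 66.8 ± 5.84 RPKM in Col clf and 35.9 ± 3.29 RPKM in the clf F1 (SD, n = 3), against a mid-parent of 33.4 RPKM.

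Sadhu4-2, on chromosome 1 at 846664-847739, was transcribed in both parents. It stood at 19.57, 20.27 and 21.56 RPKM in Col clf, at 15.09, 13.15 and 17.69 RPKM in the clf F1 and at 3.32, 7.35 and 7.59 RPKM in C24 clf. C24 clf replicate 1 lay below its 2 partners, so the C24 clf mean of 6.09 ± 2.4 RPKM (SD, n = 3) had a wide spread for its level. The mean was 20.5 ± 1.01 RPKM in Col clf and 15.3 ± 2.28 RPKM in the clf F1. It is the one element of the 5 whose parents were less than 4-fold apart.

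SADHU3-1 and SADHU3-2, which share a subfamily by name, were both close to absent in Col clf and had overlapping levels in C24 clf. SADHU3-1 lies on chromosome 3 at 15813075-15814056; it was listed at 0 in all 3 Col clf libraries, where 1 read would be worth between 0.046 and 0.062 RPKM. Its level was 19.77, 16.16 and 14.85 RPKM in C24 clf and 9.42, 7.14 and 8.07 RPKM in the clf F1. SADHU3-2, on chromosome 3 at 14749400-14750294, was at 18.67, 15.75 and 19.99 RPKM in C24 clf and at 9.21, 9.60 and 10.36 RPKM in the clf F1. Unlike SADHU3-1, it was listed above 0 in every Col clf library, at 0.34, 0.16 and 0.66 RPKM. Those low values amount to 5, 3 and 13 reads, so the 46.9-fold ratio rests on few reads in Col clf; without Col clf replicate 3 it was 72.5-fold.

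SADHU10-1, on chromosome 3 at 21765879-21766823, had a low but steady level in Col clf and a higher one in C24 clf. It stood at 2.06, 1.76 and 2.29 RPKM in Col clf, at 12.18, 9.28 and 11.82 RPKM in the clf F1 and at 16.63, 15.09 and 17.50 RPKM in C24 clf. Its clf F1 mean lay nearer to C24 clf than to Col clf. The means were 2.04 ± 0.266, 11.1 ± 1.58 and 16.4 ± 1.22 RPKM (SD, n = 3).

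The order of the elements by level therefore changed between the parents. In Col clf it ran from SADHU1-1 over Sadhu4-2 and SADHU10-1 to SADHU3-2 and SADHU3-1, with no overlap of libraries between neighbours in that order. In C24 clf the libraries of SADHU3-2, SADHU3-1 and SADHU10-1 overlapped, so these 3 could not be ordered, and Sadhu4-2 and SADHU1-1 lay below them. In the clf F1 the order ran from SADHU1-1 over Sadhu4-2 and SADHU10-1 to SADHU3-2 and SADHU3-1, with overlapping libraries from SADHU10-1 to SADHU3-1.

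On the log2(RPKM + 1) scale, which understates changes of low genes, the difference C24 clf minus Col clf was -6.08 in SADHU1-1, -1.66 in Sadhu4-2, 4.15 in SADHU3-1, 3.80 in SADHU3-2 and 2.52 in SADHU10-1. Among all tested genes 31.8% were called higher and 12.7% lower in C24 clf (limma, Benjamini-Hochberg adjusted p below 0.05), and the median gene differed by 0.13; that median moved to 0.01 after quantile normalization. At least 4-fold differences in RPKM + 1 were found in 1.81% of all tested genes and in 24.3% of the 152 tested pseudogenes. The reads were placed on the Col sequence of TAIR10, and lower alignment of C24 reads, or an element lost or duplicated in C24, cannot be told apart from a difference in transcript level.

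The hybrid was then set against the arithmetic mid-parent, the level expected if each parental genome contributed its parent's amount. The clf F1 libraries did not choose the elements, although the parental libraries in the same comparison did. None of the 5 elements passed the test in the main fit, which does not use the replicate number as a block (limma, adjusted p below 0.05). In that fit 6.73% of all tested genes were called at the same adjusted threshold. Of the 5 elements 1 had an unadjusted p below 0.05. The share of all genes with such a p is not given here, so nothing is read from that. The clf F1 values were at 99.0%, 105% and 118% of the mid-parent for SADHU1-1 (lowest, middle and highest library), at 84.4%, 95.4% and 111% for SADHU3-1 and at 99.4%, 104% and 112% for SADHU3-2. For Sadhu4-2 they were at 99.0%, 114% and 133%, and for SADHU10-1 at 101%, 128% and 132%. Of these 15 values 10 lay above the mid-parent. That count pools elements and libraries and has no share over all genes beside it, so nothing is read from it.

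The log2 difference from the mid-parent was 0.10 for SADHU1-1 (95% interval -0.09 to 0.29, limma adjusted p = 0.419) and -0.04 for SADHU3-1 (-0.29 to 0.21, adjusted p = 0.829). It was 0.07 for SADHU3-2 (-0.21 to 0.34, adjusted p = 0.709) and 0.20 for Sadhu4-2 (-0.22 to 0.62, adjusted p = 0.47). A p that misses the threshold does not show equality, and the intervals leave room for departures of these sizes. SADHU1-1, SADHU3-1 and SADHU3-2 passed the filter only through 1 parent and the clf F1, so nothing is read from their p. For SADHU10-1 it was 0.24 ± 0.103 (SE, interval 0.01 to 0.46, limma adjusted p = 0.142), and all 3 clf F1 libraries were above the mid-parent. SADHU10-1 was called higher when the replicate number was used as a block (0.24, limma adjusted p = 0.0363; 25.1% of genes called) and after quantile normalization (0.41, adjusted p = 0.0436; 2.21% called). The sign for SADHU3-1 turned with quantile normalization, to 0.14, and the other 4 elements stayed above 0.

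Across all genes, 66 were called above and 1133 below the mid-parent, and 101 above and 292 below after quantile normalization, with a median difference of -0.12 and of -0.02. Among the 323 genes whose parents were at least 4-fold apart in RPKM + 1, 24.1% were called, with a median of -0.17 and quartiles of -0.52 and 0.00. The median of the 5 elements was 0.10, and its difference from these values was not tested.

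**Figure D2:**
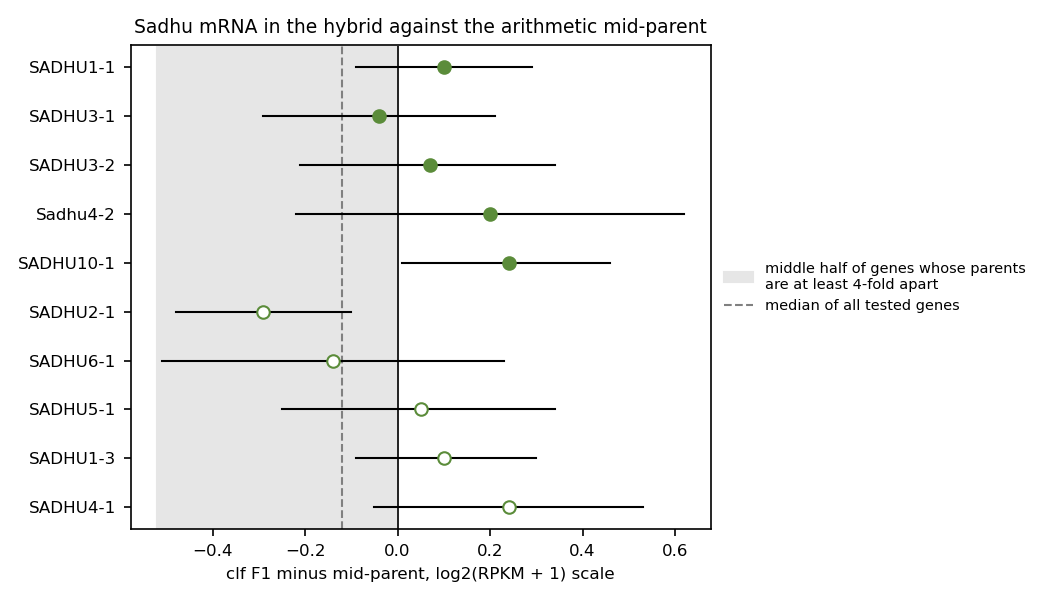
Difference between the clf F1 and the arithmetic mid-parent on the log2(RPKM + 1) scale with its 95% interval, for the 5 elements (filled) and 5 other tested Sadhu elements (open). The dashed line is the median of all 17819 tested genes (-0.12). The grey band spans the quartiles of genes whose parents were at least 4-fold apart in RPKM + 1 (-0.52 to 0.00). Of the 10 intervals, those of SADHU10-1 and SADHU2-1 leave out 0, and neither passed the adjusted threshold in this fit without the replicate block.

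Among the other annotated Sadhu elements, some differed between the parents in each direction. Of 10 others with 1 line per file, 5 passed the filter. Of these SADHU1-3 was called higher in C24 clf, beside 31.8% of all tested genes called higher, and nothing is read from that. SADHU1-3 (AT5G28626) rose from 2.43, 3.23 and 3.02 RPKM in Col clf to 19.95, 20.27 and 22.62 RPKM in C24 clf, a log2 difference of 2.50 (limma adjusted p = 1.7e-09), with 12.80, 12.23 and 13.58 RPKM in the clf F1. SADHU5-1 (AT4G01525) was at 10.54, 10.37 and 13.61 RPKM in Col clf, 5.94, 6.05 and 6.95 RPKM in the clf F1 and 0.37, 0.79 and 0.99 RPKM in C24 clf. It passed the filter only through Col clf and the clf F1, so its log2 difference of -2.87 is given without its p. SADHU4-1 (AT5G28913), the other element of Sadhu4-2's numbered subfamily, was lower in C24 clf. Its mean was 5.26 ± 0.852 RPKM in Col clf and 0.927 ± 0.199 RPKM in C24 clf (SD, n = 3). The clf F1 level of SADHU4-1 was 3.86 ± 0.819 RPKM and its highest library overlapped Col clf. In C24 clf 1 of 3 libraries reached the 1 RPKM of the filter, so the element's log2 difference of -1.70 is given without its p.

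Elements of 1 numbered subfamily did not share a direction throughout. In subfamily 1, SADHU1-1 was higher in Col clf and SADHU1-3 in C24 clf, while in subfamily 3 both elements were higher in C24 clf. SADHU2-1 (AT1G35112) had 11.6 ± 1.86, 10.1 ± 0.48 and 8.67 ± 0.368 RPKM in Col clf, C24 clf and the clf F1 and passed neither test (C24 minus Col -0.18, limma adjusted p = 0.176; F1 minus mid-parent -0.29, adjusted p = 0.0651). With the replicate block SADHU2-1 was called below the mid-parent (limma adjusted p = 0.0227), and with quantile normalization lower in C24 clf (adjusted p = 0.00982). SADHU6-1 (AT3G02515) stayed at or below 1.27 RPKM in all libraries and was not called. SADHU5-2 (AT5G27927) was listed at 0 in Col clf and at 0.27, 0.41 and 1.04 RPKM in C24 clf, and SADHU7-1, SADHU7-2, SADHU8-1 and SADHU9-1 were at or below 0.39 RPKM everywhere. Of the 5 other tested elements, 3 had parental libraries that did not overlap, and 2 had the clf F1 between them without overlap, beside 55.4% and 11.7% of all tested genes. Elements of this family resemble each other in sequence, and no source used here says how reads with several positions were treated, so copies may share reads.

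**Figure D3:**
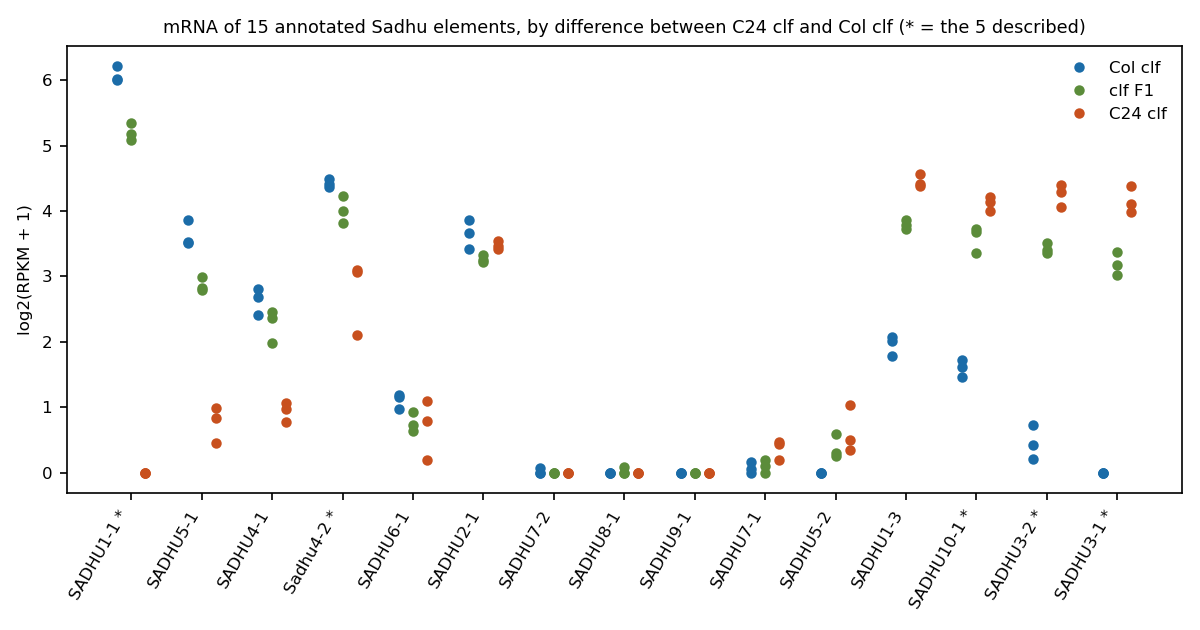
log2(RPKM + 1) of 15 annotated Sadhu elements with 1 line per file, in Col clf, clf F1 and C24 clf (3 points each), ordered by the difference between C24 clf and Col clf; asterisks mark the 5 elements described. SADHU1-1 and SADHU5-1 stand at the Col end and SADHU3-1 and SADHU3-2 at the C24 end, with the clf F1 points between those of the parents at both ends.

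Genes beside the elements were examined for differences that reach past the element. SADHU1-1 lay among silent pseudogenes: AT2G10400, 1499 bp before it, AT2G10405, which overlaps it by 122 bp, and AT2G10420, 1033 bp after it, were all at or below 0.07 RPKM in every library. Beside SADHU3-1, the pseudogene AT3G44035, 2424 bp before it, followed the same order as the element: it was at 0.03, 0.00 and 0.00 RPKM in Col clf, 2.29, 2.18 and 1.59 RPKM in the clf F1 and 4.23, 4.22 and 4.32 RPKM in C24 clf. It passed the filter only through C24 clf and the clf F1, so its log2 difference C24 minus Col of 2.38 is given without its p. The clf F1 of AT3G44035 stood at -0.06 against the mid-parent, given without its p for the same reason. AT3G44045, 3482 bp after SADHU3-1, was listed at 0 throughout. SADHU3-2 differed from SADHU3-1 here, as AT3G42656 before it was listed at 0 and the protein-coding AT3G42660, 985 bp after it, had 5.44 ± 1.03 RPKM in Col clf and 4.92 ± 0.682 RPKM in C24 clf (SD, n = 3; limma adjusted p = 0.503). Beside SADHU10-1, AT3G58860, 572 bp before it, was at or below 0.07 RPKM and AT3G58877 was listed at 0; AT3G58875, which overlaps SADHU10-1 by 466 bp, was not analysed here.

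Sadhu4-2 lies in a region of genes transcribed in shoots, and its neighbours differed between the parents too. AHP5 (AT1G03430), a phosphotransfer protein of cytokinin signalling that lies 53 bp after the element, was at 13.59, 13.40 and 12.46 RPKM in Col clf, 6.33, 6.93 and 5.11 RPKM in the clf F1 and 3.65, 4.04 and 5.07 RPKM in C24 clf. It was lower in C24 clf by -1.44 ± 0.118 on the log2 scale (SE, limma adjusted p = 1.8e-06), the same direction as Sadhu4-2. Its hybrid level, unlike that of Sadhu4-2, passed below the mid-parent (-0.45, limma adjusted p = 0.0328), but not after quantile normalization (-0.35, adjusted p = 0.107), without the filter on low values (-0.45, adjusted p = 0.0684) or against the mean of the parents' logs (-0.28, adjusted p = 0.107). The difference in hybrid position between AHP5 and Sadhu4-2 was itself not tested. Without clf F1 replicate 3 the value of AHP5 was -0.34 (adjusted p = 0.161), and the call was also lost without Col clf replicate 1 (-0.43) or 3 (-0.48), C24 clf replicate 2 (-0.46) or clf F1 replicate 2 (-0.53).

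2A6 (AT1G03410), an oxygenase-family gene whose annotated span overlaps Sadhu4-2 by 1020 bp, was at 1.77 ± 0.166, 1.21 ± 0.105 and 0.52 ± 0.262 RPKM in Col clf, the clf F1 and C24 clf (SD, n = 3). It passed the filter only through Col clf and the clf F1, so its log2 difference of -0.88 is given without its p. No source used here gives the strand setting, so reads of Sadhu4-2 and 2A6 cannot be told apart over that stretch. The long non-coding RNA gene AT1G04183 overlaps Sadhu4-2 by 1020 bp too and was not analysed here. AT1G03400, 2412 bp before the element, went the other way at 16.8 ± 2.83 RPKM in Col clf and 21.0 ± 0.968 RPKM in C24 clf (0.31, limma adjusted p = 0.0238). It lost that call after quantile normalization (0.19, adjusted p = 0.123) and without Col clf replicate 1 (0.26) or 2 (0.24) or C24 clf replicate 2 (0.29) or 3 (0.30). In the clf F1 AT1G03400 had 14.2 ± 0.387 RPKM, below the mid-parent (-0.39, limma adjusted p = 0.0273). That call was lost after quantile normalization (-0.26, adjusted p = 0.12), without the filter on low values (adjusted p = 0.057) and without C24 clf replicate 2 (-0.38) or 3 (-0.38) or clf F1 replicate 2 (-0.38) or 3 (-0.41).

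**Figure D4:**
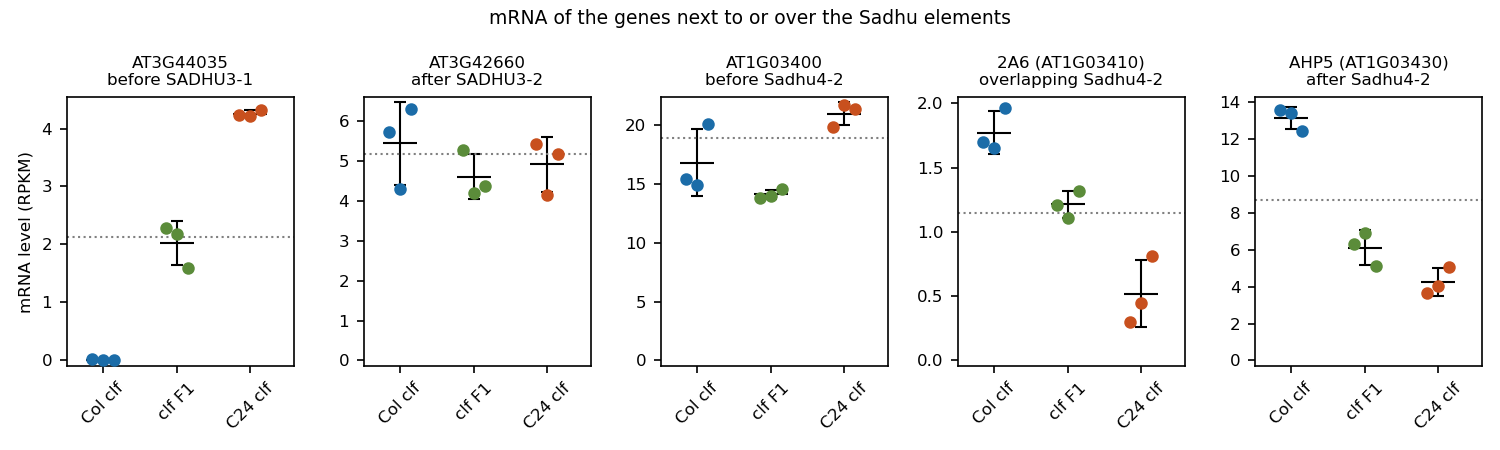
RPKM of the tested genes before, over or after the elements, in the 3 Col clf, 3 clf F1 and 3 C24 clf libraries (points), with mean and SD (black) and the mean of both parents (dotted). AT3G44035 was near 0 in Col clf as SADHU3-1 was, and AHP5 and 2A6 were lower in C24 clf as Sadhu4-2 was, while AT3G42660 overlapped between the parents.

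The wild-type and clf peak lists gave H3K27me3 peaks over 3 of the 5 elements, with the accession of the peaks differing between elements. Sadhu4-2 had a peak in all 3 C24 lists, in 1 of 3 F1 lists and in none of 3 Col lists. SADHU3-1 had one in 2 of 3 C24 lists, 1 of 3 F1 lists and no Col list. SADHU10-1 had one in 6 lists, and SADHU1-1 and SADHU3-2 in none. The share of all annotated genes under a peak was 21.5%, 20.7% and 21.5% in the first wild-type replicates of Col, C24 and F1, 7.69%, 15.7% and 12.3% in the second ones and 18.7% in Col clf, 18.7% in C24 clf and 19.7% in clf F1. These shares are for single lists. The share of genes with a peak in any list was not computed, so the 3 of 5 elements cannot be set beside them. The second wild-type replicates stood apart: their lists covered 4.32 to 8.08 Mb against 11.8 to 16.7 Mb in the others, and their median scores were 87.2 to 125 against 441 to 623. With 2 or 1 libraries a group an exact permutation test cannot reach the threshold, and no test was made.

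Over Sadhu4-2, the wild-type C24 replicate 1 peak covered the whole element within 844391-850590 of chromosome 1 (2221 tags, the authors' fold enrichment 2.73). The C24 peaks with most of the overlap in the other lists were narrow, with nearly the same ends. They lay at 846871-847657 in wild-type C24 replicate 2 (107 tags, fold 3.01) and 846864-847658 in C24 clf (102 tags, fold 3.05). Peaks of C24 clf covered 808 bp of the element, more than the 795 bp of that peak, so a further peak reached into it. Over the overlapping gene AT1G04183 C24 clf had 2 peaks, the higher scoring one with 216 tags and fold 5.99. In wild-type F1 replicate 1 a peak at 844458-847677 (1078 tags, fold 2.97) covered 94.2% of the element. The nearest peak in wild-type Col replicate 1 ended 1074 bp away, and in Col clf and clf F1 the nearest was 2447 and 2395 bp away. In those clf lists and in the first replicates of wild-type Col and F1 a peak lay over AT1G03400, where no C24 list had one. The peaks over Sadhu4-2 thus came with the accession in which its mRNA was lower in clf, and without the second wild-type replicates they remained in both C24 lists and in no Col list. Every peak over Sadhu4-2 scored below the median score of its list.

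Over SADHU3-1 the peaks came with the accession in which the element was transcribed in clf. They lay at 15813323-15814024 of chromosome 3 in wild-type C24 replicate 1 (96 tags, fold 3.23), at 15813206-15814035 in C24 clf (147 tags, fold 7.74) and at 15813227-15814102 in clf F1 (109 tags, fold 4.51). These narrow peaks were between 702 and 876 bp long and covered between 71.5% and 84.5% of the element. In wild-type C24 replicate 2 the nearest peak was 2948 bp away and lay over the neighbour AT3G44035 (71 tags, fold 3.28). In Col the nearest peak was 11013 bp or more away in all 3 lists. The levels of tags behind these narrow peaks were low, and all 3 scores were below the median score of their list.

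SADHU10-1 lay at the edge of a wide marked region that reached past its annotated end in every list with a peak over it. The peaks were 6367 to 8658 bp long, and they covered the whole element in both wild-type F1 replicates, Col clf and clf F1. In C24 they reached less far into it: the peak covered 42.8% of the element in wild-type C24 replicate 1, starting at 21766420, and 17.4% in C24 clf, starting at 21766660. The wild-type C24 replicate 2 peak lay 895 bp beyond the element. Both wild-type Col lists had no peak over the element, with the nearest 17665 and 7327 bp away, while Col clf had one of 8228 bp (3796 tags, fold 3.63).

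No list had a peak over SADHU1-1, and the nearest ones were between 11552 and 12022 bp away in all 9 lists, although its mRNA ranged from 73.51 RPKM to listed at 0. Over SADHU3-2 no list had a peak either; the nearest was 804 bp away in C24 clf, over AT3G42660 (75 tags, fold 3.50), and 16364 bp or more in the others. Among the 11 other Sadhu elements, 2 had a peak in any list, a count that has no share over all genes beside it. SADHU5-1 had one in wild-type Col replicate 2, wild-type F1 replicate 2 and all 3 clf lists, and SADHU7-1 in wild-type Col replicate 1 and wild-type C24 replicate 2. Reads of C24 and F1 were placed on the Col sequence here too, and repeated sequence can keep tags from being placed, so a list without a peak does not show that the mark was absent.

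**Figure D5:**
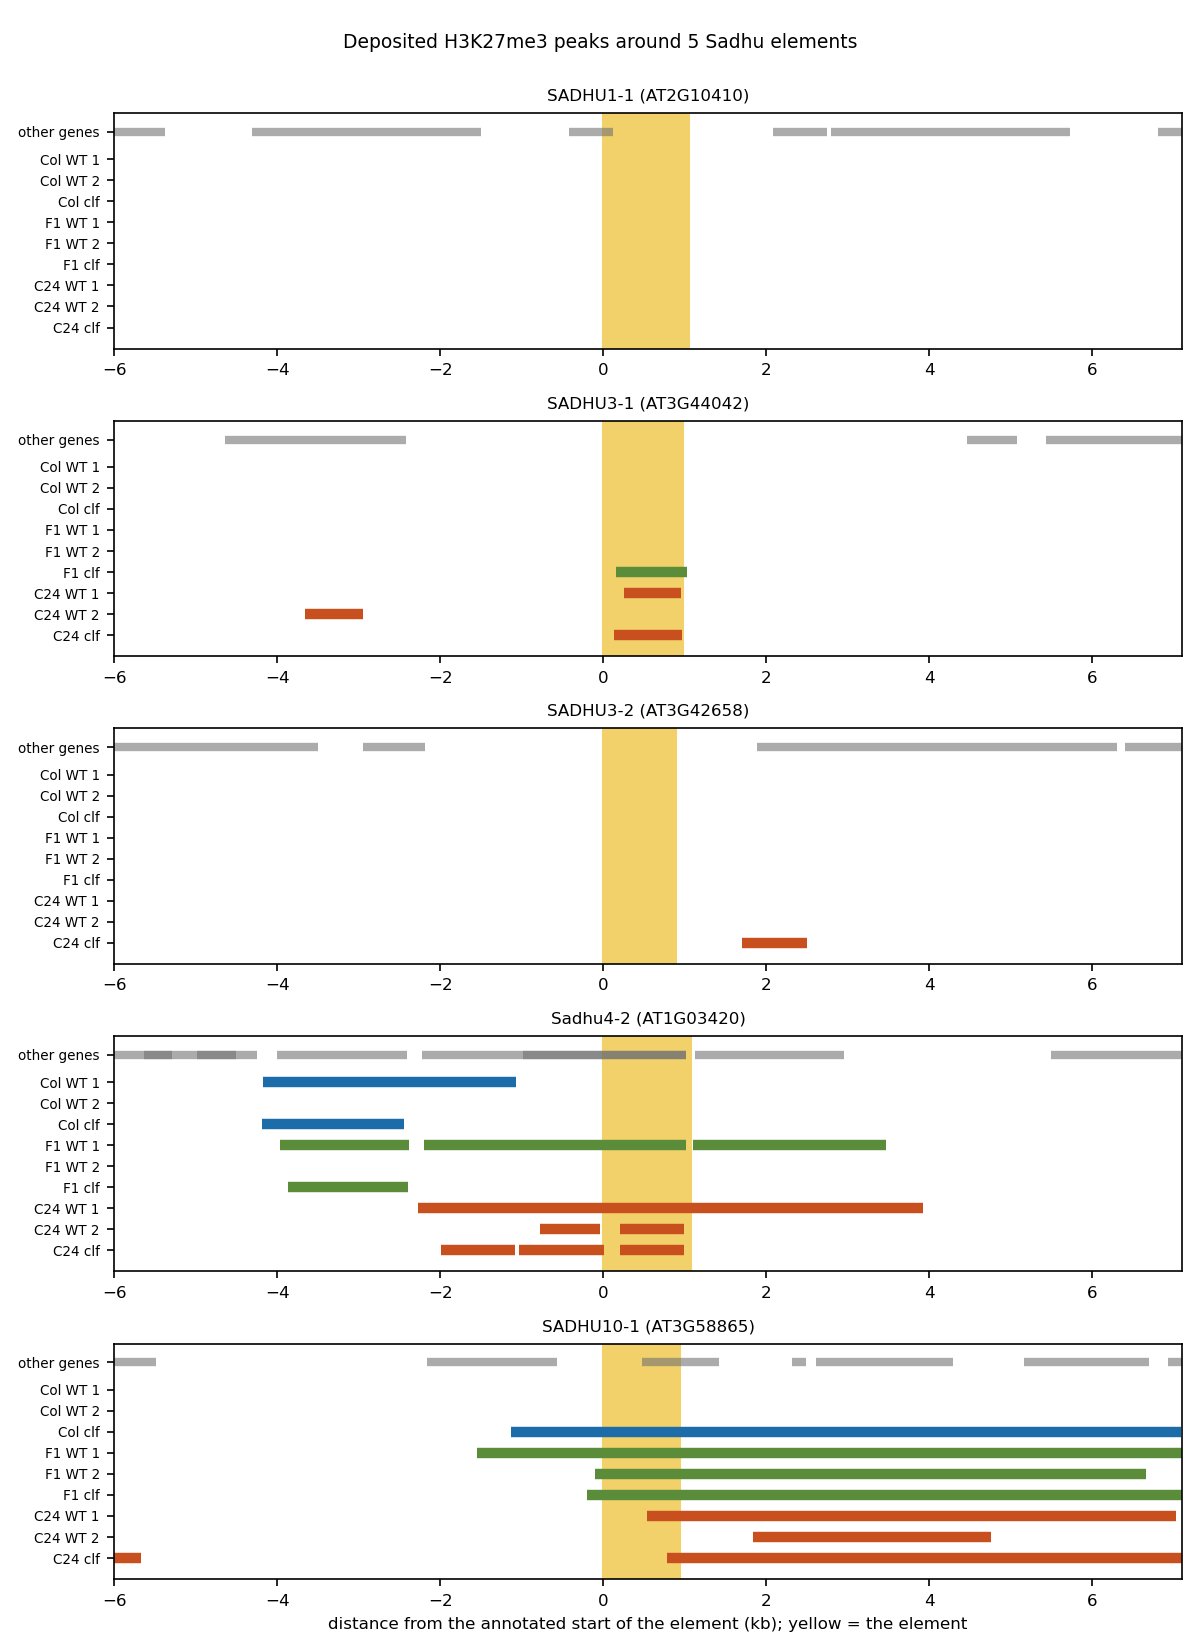
Deposited H3K27me3 peaks (bars; blue Col, green F1, orange C24) in 9 lists around each element, against distance in kb from the annotated start of the element (yellow), with other annotated genes in grey. Narrow C24 bars lie over SADHU3-1, with one of clf F1, and over Sadhu4-2, wide bars run from SADHU10-1 to its right, and no bar crosses SADHU1-1 or SADHU3-2.

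Genes of the silencing machinery that acts on such elements were counted from 3 lists, to be read beside the 31.8% of all tested genes called higher and 12.7% called lower in C24 clf. Of 11 tested genes of maintenance DNA methylation, H3K9 methylation and silencing, 2 were called higher in C24 clf and 1 lower (median log2 difference 0.10), and 1 higher and 2 lower after quantile normalization. The chromomethylase CMT2, which methylates long silent transposons, rose from 9.3 to 14.8 RPKM (0.62, limma adjusted p = 3.5e-04), and VIM1, a cofactor of maintenance methylation, fell from 15.3 to 11.1 RPKM (-0.42, adjusted p = 0.018). Of 13 genes of RNA-directed DNA methylation, 7 were called higher and 0 lower (limma; median 0.24), and 3 higher and 0 lower after quantile normalization. With the replicate block 8 were called higher and 0 lower, beside 6800 higher and 2744 lower of all 17819 tested genes. The largest difference on the RNA-directed list was in KTF1, an adaptor of the pathway, at 8.48 RPKM in Col clf and 14.3 RPKM in C24 clf (0.69, limma adjusted p = 3.9e-05). Of 5 genes of demethylation and IBM1, 2 were called higher and 1 lower (median 0.15): DML2 and DME, both DNA glycosylases that remove methylated cytosine, rose by 0.62 and 0.32, and their relative DML3 was at 1.79 RPKM in Col clf and 0.853 RPKM in C24 clf. Of the genes counted as called, DML3 passed the filter only through Col clf and 1 clf F1 library, and AGO6 of the RNA-directed list only through C24 clf. The medians stand beside 0.13 for all tested genes.

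Against the mid-parent, 1 of the genes on these lists was called in the clf F1 (6.73% of all tested genes were), DME, at 12.3 RPKM against 13.4 RPKM in Col clf and 16.9 RPKM in C24 clf (-0.29, limma adjusted p = 0.0242). DME was not called after quantile normalization, where none of the lists had a gene called. With the replicate block 1 maintenance gene, 3 genes of RNA-directed DNA methylation and 2 of the demethylation list were called below the mid-parent and 0 above, beside 25.1% of all tested genes called in that fit.

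Finally, the tested genes with the most similar pattern over the 9 libraries were listed for each element, by the root mean square difference of log2(RPKM + 1) after removal of each gene's mean. For SADHU1-1 the closest was LpxC2 (AT1G24880), a lipid A synthesis gene with near-identical copies that may share reads, at a distance of 0.0587 and a mean of 69.3 ± 6.33 RPKM in Col clf, 36.2 ± 1.38 RPKM in the clf F1 and at most 0.05 RPKM in C24 clf. AT4G34881 (0.126) and AT5G49440 (0.14) came next, and both were listed at 0 in C24 clf. AT5G17100 was the closest gene to both subfamily 3 elements, at 0.173 to SADHU3-1 and 0.168 to SADHU3-2, and was listed at 0 in Col clf. AT1G61500 (0.18) and AT5G53700 (0.188) followed for SADHU3-1. AT3G28320 (0.204) and the floral repressor FLC (0.244), at 10.6 ± 0.654 RPKM in Col clf and 140 ± 7.96 RPKM in C24 clf (SD, n = 3), followed for SADHU3-2. The closest gene to SADHU10-1 was another Sadhu element, SADHU1-3 (0.151), ahead of AT3G11160 (0.214) and AT1G78450 (0.221). Sadhu4-2 had no gene as close, with AT3G28140 at 0.224, AT2G09795 at 0.246 and AT5G66052 at 0.25.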

How the data were processed

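Each mRNA library has 1 deposited file of RPKM per gene, a unit read from the values. TopHat, Bowtie and the TAIR10 build stand in the tool list of the submitters' processing notes without versions or roles. The peak lists, 1 per library, give each peak's ends, its count of tags, a score and a fold enrichment as deposited by the authors; the peak caller, any input control, strand and the treatment of reads with several positions: not given in the sources used here. Lists hold only peaks scoring at least 50.

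Of 34133 lines per mRNA file, 1141 belonged to 567 repeated IDs and were dropped, leaving 32992 genes. At most 0.971% of values were identical between any pair of mRNA libraries. Depth came from the step of 1 read in short genes; 67.2% to 76.8% of low values lay within 4% of a whole read, and since reads could not be recovered for longer genes, no count test was made. The 17819 genes that reached 1 RPKM in 3 or more libraries were fitted as log2(RPKM + 1) in limma (version 3.58.1, R 4.3.3; trended prior), 3 groups sharing 1 spread, and Benjamini-Hochberg adjustment over all tested genes. The mid-parent was the mean of both parents' fitted levels with a delta-method error. Replicate numbers paired the mRNA libraries: same-numbered libraries of different groups deviated together in all 9 pairs (correlations 0.17 to 0.43), a pairing seen in the data and not described in the labels, so block values are given where they change a call.

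Elements, neighbours and lengths came from RefSeq (TAIR10.1, which keeps the nuclear chromosomes of TAIR10). As a check of the shared coordinates, 76.8% of 4479 protein-coding genes under Col clf peaks were below 1 RPKM, against 36.3% of 3038 with peaks moved by 100 kb. A peak counted where it overlapped by at least 1 bp. Positions were read as 1-based. No sequence of the elements is shown, as the sources used here hold none.

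Named were the 5 elements, every other annotated Sadhu element, the nearest genes on each side and any overlapping one, the 3 most similar tested genes for each, and genes of the 3 silencing lists called against the mid-parent; the other silencing genes named were chosen after their values were seen. Members and lists were chosen with earlier results of these data known.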

Additional observations from a re-analysis of the deposited data

How the results depend on the processing

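Results were recomputed with another pseudocount, other filters on low values, quantile normalization, the replicate block, the mean of the parents' logs, and without each library in turn. Against the mean of the parents' logs the clf F1 stood higher by 2.16 in SADHU1-1 and 1.12 in SADHU3-1 (turned from -0.04). It was higher by 1.07 in SADHU3-2 and 0.73 in SADHU10-1. In SADHU5-1 it was higher by 0.67, in SADHU1-3 by 0.59 and in AT3G44035 by 0.38 (turned from -0.06). That mean is the geometric one, which lies below the arithmetic one whenever the parents differ. These values were past the threshold. A clf F1 near the arithmetic mean of parents far apart must stand above the geometric one, so nothing is read from that. SADHU10-1 also passed with quantile normalization (0.41) and with the replicate block (0.24). Leaving out 1 library called none of the 5, with ranges of 0.03 to 0.17 for SADHU1-1, -0.13 to 0.07 for SADHU3-1, -0.02 to 0.13 for SADHU3-2, 0.10 to 0.30 for Sadhu4-2 and 0.17 to 0.35 for SADHU10-1. The difference C24 clf minus Col clf was -9.38, 7.40, 5.36 and 2.95 in SADHU1-1, SADHU3-1, SADHU3-2 and SADHU10-1 with a pseudocount of 0.1, as low values then weigh more, and -5.95, 3.94 and 3.60 in SADHU1-1, SADHU3-1 and SADHU3-2 after quantile normalization; without single libraries it ran from -6.12 to -6.01, 4.04 to 4.24, 3.68 to 3.93, -1.84 to -1.34 (Sadhu4-2) and 2.45 to 2.58 (SADHU10-1). No direction of that difference turned for any of the 5.

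The number of genes called against the mid-parent, 1199, was 553 without a filter, 393 with quantile normalization and 4472 with the replicate block, and the cause was not tested. It ran from 179 to 3377 without single libraries: 179, 213 and 3377 without clf F1 replicates 3, 2 and 1, 386 and 548 without C24 clf replicates 3 and 2, and 603 and 613 without Col clf replicates 1 and 3. The number called between the parents, 7935, ran from 6299 to 8272. For the peaks, 0 lists had one over SADHU3-1 or Sadhu4-2 and 2 over SADHU10-1 among peaks at or above their list's median score, and 0 over SADHU3-1, 0 over Sadhu4-2 and 0 over SADHU10-1 among the 1500 highest scoring peaks of each list. With 1 kb added on each side, 1 list had a peak at SADHU3-2. Without single wild-type replicates the number of lists with a peak ran from 2 to 3 for SADHU3-1, 3 to 4 for Sadhu4-2 and 5 to 6 for SADHU10-1, and stayed at 0 for SADHU1-1 and SADHU3-2. Depth limits the values listed at 0 and those of a few reads, and the peak lists give no level below their threshold.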

Other observations

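SADHU1-2 (AT1G30835) was listed on 2 lines of every mRNA file with different values and entered no comparison. Its first line read 13.30, 13.34 and 17.09 RPKM in Col clf, 8.71, 9.77 and 11.07 RPKM in C24 clf and 11.67, 10.08 and 10.15 RPKM in the clf F1. Its second line read 3.55, 3.32 and 3.36 RPKM in Col clf, 3.74, 3.80 and 2.92 RPKM in C24 clf and 5.41, 4.61 and 6.02 RPKM in the clf F1. On the first line all Col clf libraries were above all C24 clf libraries, and on the second line all clf F1 libraries were above those of both parents. No peak lay over SADHU1-2 in any of the 9 lists.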
